A study of Rattus norvegicus with 4 samples.

Results

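Genes that carry the incretin signal from the cell surface to the nucleus were followed in β-cells depleted of TBK1. The set holds 10 genes of the 15172 in the deposited table and was chosen by gene name for its role: the incretin receptors Glp1r and Gipr, the stimulatory G protein α-subunit Gnas, the adenylyl cyclases Adcy3, Adcy5, Adcy6 and Adcy9, and the cAMP effectors Rapgef4, Prkaca and Creb1. RNA was sequenced from INS-1 832/13 cells, a clone of a rat insulinoma line that secretes insulin in response to glucose. The cells received either a pool of siRNAs against Tbk1 (siTbk1, 2 samples) or a non-targeting control siRNA (siScramble, 2 samples), and both groups were kept for 36 h after transfection with the same reagent. Both groups have a replicate 2 and a replicate 3. Nothing in the sources used here says that the samples of a group came from separate cultures, so the p-values measure the spread between these samples, which may be technical.

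Incretins are gut hormones that are released after a meal and strengthen glucose-stimulated insulin secretion. GLP-1 and GIP bind their receptors on the β-cell, the receptors activate Gs, and Gs turns on adenylyl cyclases, which make cyclic AMP (cAMP) from ATP. cAMP then acts on protein kinase A, which phosphorylates secretory proteins and the transcription factor CREB, and on Epac2, which acts on insulin granule release without the kinase. The study examined TBK1 and cAMP in β-cells, and the present comparison asks how the mRNAs of the cAMP-producing and cAMP-sensing side stood after Tbk1 was silenced.

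The total count was between 38428926 and 47759013 per library, so that 3 counts correspond to between 0.0625 and 0.0795 CPM (counts per 1000000, scaled here with TMM factors between 0.982 and 1.02). Tbk1 had 53.7 and 52.5 CPM in siScramble and 11.8 and 13.3 CPM in siTbk1 (replicate 2, then replicate 3, as in all pairs of values given here), a log2 fold change of −2.08 (standard error 0.076, adjusted p = 3.7e-08). Of the 12 β-cell markers, 11 had a row. Their summed level was between 13520 and 14260 CPM in siScramble and between 9274 and 10610 CPM in siTbk1, mostly from Ins1. These markers did not move together: Ins1, Ins2, Slc2a2 and Pdx1 fell (log2 fold changes from −0.67 to −0.24), Iapp (0.38) and Nkx6-1 (0.23) rose, and Nkx2-2, Neurod1, Abcc8 and Kcnj11 did not pass. Gcg, the glucagon gene of α-cells, was at 1313 to 1389 CPM in siScramble and 815 to 878 CPM in siTbk1, and no other α-cell marker was analysed here. Kdr, the only endothelial marker of those listed that had a row, was at 8.47 to 9.32 CPM in siScramble and 2.76 to 3.23 CPM in siTbk1. The listed markers of δ-cells (Hhex), duct cells (Sox9) and leukocytes (Cd68) stayed under 0.4 CPM in every library, and the acinar marker Ctrb1 was between 2.32 and 3.38 CPM. Markers of PP cells, ε-cells and fibroblasts were not analysed here. Gcg, Kdr and Ctrb1 fell (−0.68, −1.57 and −0.45), and the part of these markers in the results was not tested.

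All 10 genes passed the filter on low counts. Throughout, a gene is said to have risen or fallen at an adjusted p-value under 0.05, and to have been called at a fold change of at least 1.5 as well. Every adjusted p is that of edgeR's quasi-likelihood test, adjusted after Benjamini and Hochberg over 13953 tested genes. Adcy5, Gipr, Adcy6 and Gnas fell, Adcy9 rose in this fit but not in several others, and Glp1r, Adcy3, Rapgef4, Prkaca and Creb1 did not pass. Among all tested genes, 24.8% fell and 24.4% rose at this threshold, so 4 genes falling and 1 rising of 10 stand beside a background in which 49.2% of genes moved. Adcy5 was called lower and no gene of the set was called higher, beside 6.18% and 4.81% of all tested genes. At an unadjusted p-value under 0.05 the set held 6 genes, beside 55.4% of all tested genes, and DESeq2 also called none of them higher. The siTbk1 libraries both lay below both siScramble libraries for 6 genes and above them for 2, against 37.9% and 38.7% of all tested genes. Over the set the log2 fold changes had a median of −0.15, and over all tested genes one of 0.0071. In these bulk samples, fewer cells of a kind and less RNA per cell cannot be told apart.

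**Figure D1:**
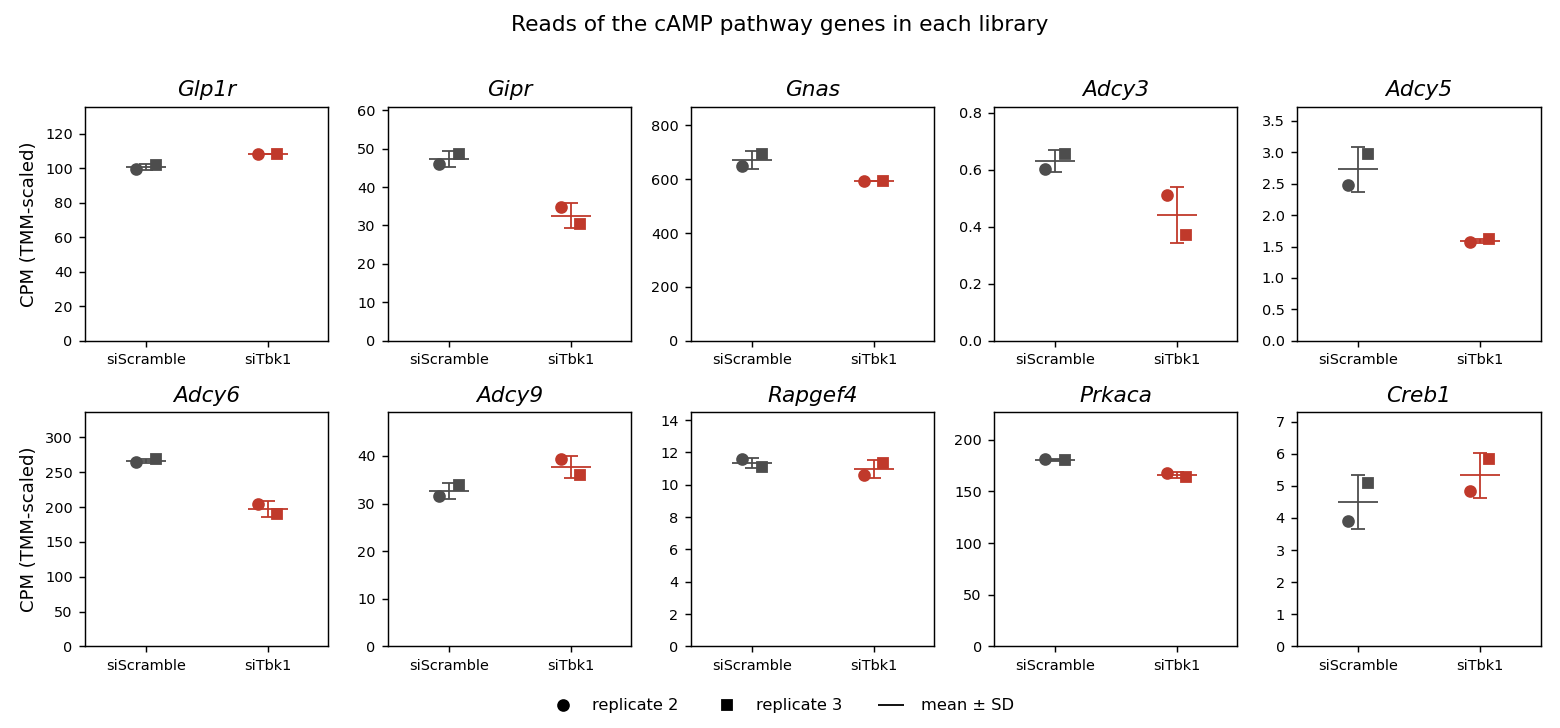
Level of each of the 10 genes in CPM (linear axis from 0, scaled with TMM factors) in siScramble (grey) and siTbk1 (red) libraries. Circles are replicate 2 and squares replicate 3, and bars give mean ± SD (n = 2). The siTbk1 libraries lie below the siScramble libraries for Gipr, Gnas, Adcy3, Adcy5, Adcy6 and Prkaca, above them for Glp1r and Adcy9, and overlap with them for Rapgef4 and Creb1.

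The 2 incretin receptors stood apart from each other. Gipr, the receptor of glucose-dependent insulinotropic polypeptide, is listed on chromosome 1 from 80063049 to 80073224 (rn6). In siScramble it was at 45.9 CPM (replicate 2) and 48.7 CPM (replicate 3), and in siTbk1 at 34.8 and 30.3 CPM. Both siTbk1 libraries were low and the groups did not overlap. Its normalized count was 2039 ± 85.6 in siScramble and 1403 ± 137 in siTbk1 (SD, n = 2 each), so that Gipr fell by 31.0% (log2 fold change −0.54, standard error 0.075, adjusted p = 0.00013). This is short of the fold change limit. Without siTbk1 replicate 2, which had the higher of the 2 siTbk1 values, the log2 fold change was −0.65 and Gipr was called lower.

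Glp1r, the receptor of glucagon-like peptide-1, is listed on chromosome 20 from 9586075 to 9626229 (rn6). It was at 99.2 and 102 CPM in siScramble and at 108.4 and 108.3 CPM in siTbk1. Both siTbk1 libraries were slightly above both siScramble libraries. The log2 fold change was 0.11 with a 95% confidence interval from −0.0095 to 0.22, and the gene did not pass the test (adjusted p = 0.12). The upper end of this interval is below a 1.5-fold rise, which is 0.585 on the log2 scale.

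A ratio of 2 genes within a library does not depend on the scaling between libraries. Per Gipr count there were 2.16 and 2.10 Glp1r counts in siScramble, and 3.12 and 3.57 in siTbk1. The ratio was higher in both siTbk1 libraries, with means of 2.13 ± 0.047 and 3.34 ± 0.32 (SD, n = 2 each). An exact permutation test of this difference gave p = 0.333 (two-sided), the smallest value that 2 samples against 2 can give.

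Gnas encodes the α-subunit of Gs, which couples both receptors to adenylyl cyclase. It is an imprinted gene that makes several transcripts from different start sites, and the RefSeq table used here lists 3 start sites for it within 47.7 kb, whereas the deposited table has 1 row for the gene, listed on chromosome 3 from 172374957 to 172434614 (rn6). Gnas was at 647 and 695 CPM in siScramble and at 592 and 595 CPM in siTbk1. The siTbk1 libraries were close to each other and under both siScramble libraries. Gnas fell by 11.6% (log2 fold change −0.18, standard error 0.054, adjusted p = 0.016). Without siScramble replicate 3, the library with the highest value, the log2 fold change was −0.13 and the gene no longer passed (adjusted p = 0.18). Its counts include values that are not whole numbers, here called fractional counts, which make them less certain.

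**Figure D2:**
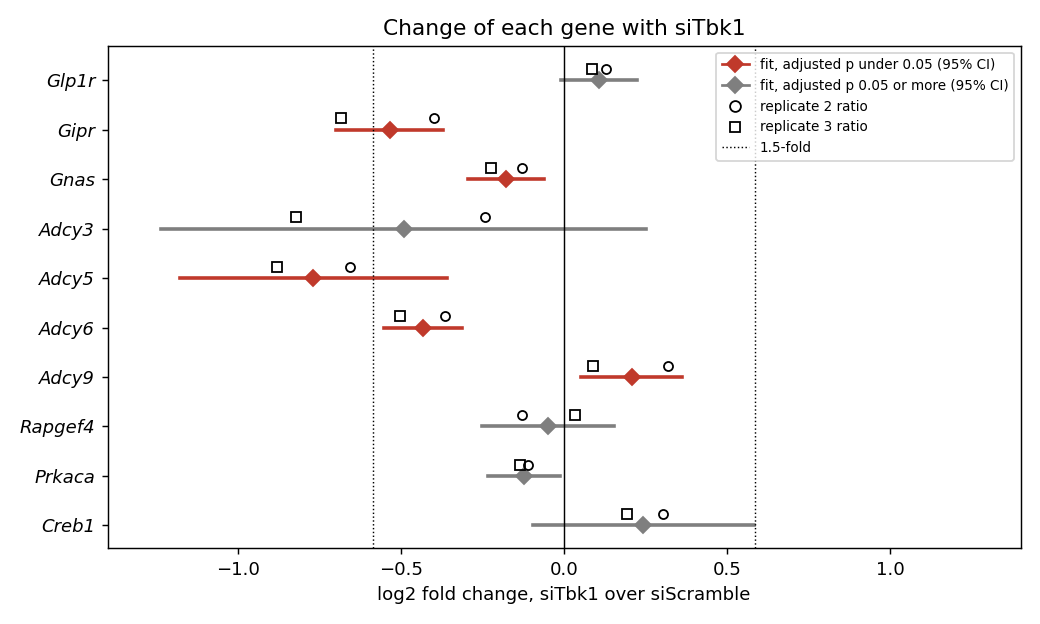
log2 fold change of each gene, siTbk1 over siScramble, from the quasi-likelihood fit (diamonds) with its 95% confidence interval (bars), and the ratios within replicate 2 (open circles) and replicate 3 (open squares). Red marks an adjusted p under 0.05, and the dotted lines mark a 1.5-fold change. Adcy5 at −0.77 has the only fitted value past a dotted line, and the intervals of Glp1r, Adcy3, Rapgef4 and Creb1 include 0.

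The adenylyl cyclases are membrane enzymes that differ in what modulates them. Adcy5 and Adcy6 are inhibited by Gi and by calcium, and Adcy9 is the least sensitive of the membrane-bound family to forskolin. Adcy6, listed on chromosome 7 from 140270692 to 140291621 (rn6), was at 264 and 269 CPM in siScramble and at 205 and 190 CPM in siTbk1. Both siTbk1 libraries were low and the spread within each group was small. The normalized count was 11480 ± 144 in siScramble and 8506 ± 469 in siTbk1 (SD, n = 2 each). Adcy6 fell by 25.9% (log2 fold change −0.43, standard error 0.055, adjusted p = 7.0e-05), the smallest adjusted p of the 10 genes, and its count includes fractional values.

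Adcy5, the closest relative of Adcy6, is listed on chromosome 11 from 68695839 to 68842321 (rn6) and was measured at low depth, with 119 and 118 counts in siScramble and 74 and 61 in siTbk1. These are 2.48 and 2.98 CPM against 1.57 and 1.62 CPM. The siTbk1 libraries lay close together and under both siScramble libraries. Adcy5 fell by 41.3% and was the only gene of the set to be called (log2 fold change −0.77, 95% confidence interval −1.18 to −0.36, adjusted p = 0.0049). The interval includes changes smaller than 1.5-fold, and under a test that asks whether a change exceeds 1.5-fold (glmTreat) Adcy5 did not pass (adjusted p = 0.88), nor did any other gene of the set, beside 1.17% of all tested genes higher and 0.724% lower. Its call held in the fits that left out any single library, where the log2 fold change was between −0.90 and −0.64.

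Adcy3 had few counts, 29 and 26 in siScramble and 24 and 14 in siTbk1, or 0.604, 0.656, 0.510 and 0.371 CPM. The siTbk1 values were the lower ones in each case. The log2 fold change was −0.49 with a 95% confidence interval from −1.24 to 0.25 (adjusted p = 0.26). At this depth the interval includes both no change and a fall of slightly more than 2-fold. Adcy3 overlaps Cenpo, which is listed on the opposite strand. The libraries were made with a kit that keeps strand, but whether the counting used it is not given in the sources used here.

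Adcy9 had the opposite direction. It is listed on chromosome 10 from 11392625 to 11512601 (rn6) and was at 31.5 and 33.9 CPM in siScramble and at 39.3 and 36.0 CPM in siTbk1. The siTbk1 values were higher in both libraries, and more so in replicate 2 (log2 ratio 0.32) than in replicate 3 (0.09). Adcy9 rose by 0.21 on the log2 scale (standard error 0.071, adjusted p = 0.029), and its counts include fractional values. The gene no longer passed with DESeq2 (adjusted p = 0.072), with library size alone (0.087), without siScramble replicate 2 (0.14) or without siTbk1 replicate 2 (0.27). Adcy9 spans 120.0 kb, and after a correction for genomic span its log2 fold change was 0.085 (adjusted p = 0.35).

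Of the other adenylyl cyclase genes, Adcy1 and Adcy8, which calcium and calmodulin activate, had rows. Adcy1 was at 18.0 and 20.0 CPM in siScramble and 16.5 and 14.7 CPM in siTbk1 and fell (log2 fold change −0.28, adjusted p = 0.020). Adcy8, named after its value was seen, was at 5.02, 4.24, 4.76 and 5.33 CPM in the same order (log2 fold change 0.11, adjusted p = 0.52). Summed over the 6 adenylyl cyclase genes in the table, the level was 322 and 330 CPM in siScramble and 268 and 248 CPM in siTbk1. Within this sum, which weighs long mRNAs more than short ones, Adcy6 took 82.1% and 81.3% of the counts in siScramble and 76.6% in both siTbk1 libraries. The share of Adcy9 was 9.80% and 10.2% in siScramble and 14.7% and 14.5% in siTbk1. Neither share overlapped between the groups. In CPM, 38.7% of all tested genes had both siTbk1 libraries above both siScramble libraries, and 37.9% had them below. The shares of a library add up to the whole, so a fall of Adcy6 raises the other shares without any rise of those genes. The share of Adcy5 was lower in both siTbk1 libraries (0.771% and 0.902% against 0.588% and 0.653%), that of Adcy8 was higher (1.56% and 1.28% against 1.78% and 2.15%), and those of Adcy1 and Adcy3 overlapped. No share could pass a test, since an exact permutation test of 2 samples against 2 cannot go below p = 0.333 (two-sided).

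**Figure D3:**
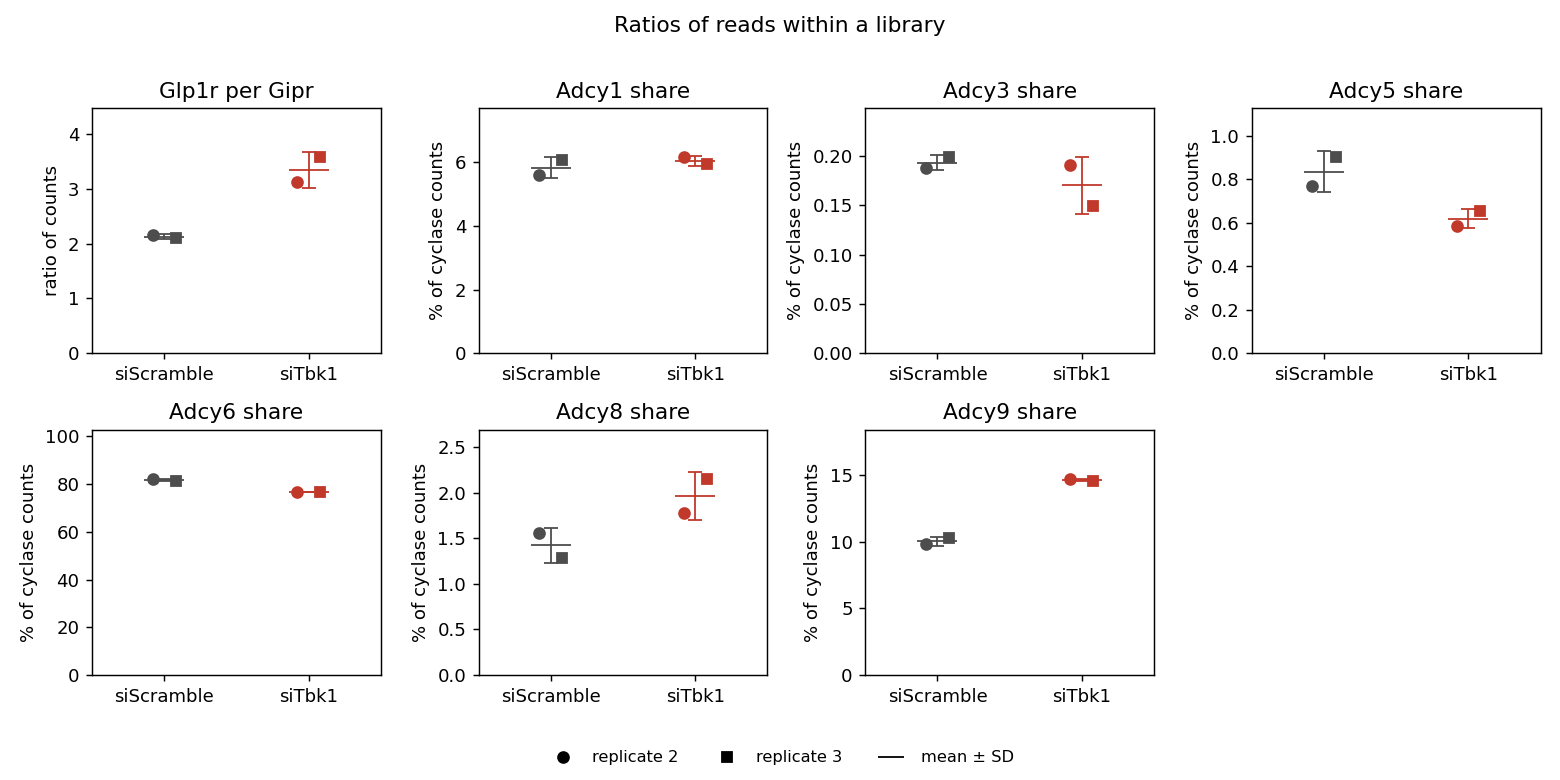
Glp1r counts per Gipr count, and the share of each of the 6 adenylyl cyclase genes in their summed counts (percent), on linear axes from 0. Circles are replicate 2, squares replicate 3, bars mean ± SD (n = 2). The siTbk1 libraries are higher for Glp1r per Gipr and the shares of Adcy8 and Adcy9, lower for the shares of Adcy5 and Adcy6, and overlap with siScramble for Adcy1 and Adcy3.

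None of the 3 effectors passed the test. Prkaca encodes the α catalytic subunit of protein kinase A and is listed on chromosome 19 from 25095089 to 25118861 (rn6). It was at 181 and 180 CPM in siScramble and at 168 and 164 CPM in siTbk1. The siTbk1 libraries were lower by a small and even margin. The log2 fold change was −0.12 (95% confidence interval −0.23 to −0.012) with an unadjusted p of 0.033 and an adjusted p of 0.064 in edgeR's test, so the gene did not pass. With library size alone as scaling it did (log2 fold change −0.17, adjusted p = 0.014).

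Prkacb, the β catalytic subunit, is named after its value was seen and rose (log2 fold change 0.18, adjusted p = 0.037), from 36.2 and 35.3 CPM to 41.8 and 39.1 CPM. The counts of Prkacb include fractional values.

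Rapgef4 encodes Epac2, the cAMP-activated exchange factor for Rap GTPases, and is listed on chromosome 3 from 58632476 to 58924039 (rn6), the longest span of the set at 292 kb. It was at 11.6 and 11.1 CPM in siScramble and at 10.6 and 11.4 CPM in siTbk1. The groups overlapped. The log2 fold change was −0.050 with a 95% confidence interval from −0.25 to 0.15 (adjusted p = 0.68), so that changes of 1.5-fold in either direction lie outside the interval.

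Creb1 encodes the transcription factor that protein kinase A phosphorylates, and is listed on chromosome 9 from 71230108 to 71293436 (rn6). It was at 3.91 and 5.10 CPM in siScramble and at 4.83 and 5.83 CPM in siTbk1. In both groups replicate 3 was above replicate 2, and the groups overlapped. The log2 fold change was 0.24 with a 95% confidence interval from −0.096 to 0.58 (adjusted p = 0.22). The value rested on which siScramble library was used: it was 0.057 without siScramble replicate 2 and 0.44 without siScramble replicate 3, the only fit in which the gene passed (adjusted p = 0.040). Its counts include fractional values.

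The promoter sequences of the set were searched for the site to which CREB binds, because Creb1 is the nuclear end of the pathway. RefSeq start sites (build GRCr8) were matched by symbol for 7 of the 10 genes, with 10 windows of 250 bases before a start. Gipr, Adcy3 and Adcy6 had no window, so Gipr and Adcy6, which fell, were not searched. The full cAMP response element TGACGTCA reads the same on both strands and was in none of these windows, against 1.59% of the 33465 windows in the table. Its core TGACG, searched on both strands, which the full element contains, was in 3 of the 10 windows, against 18.2% of all windows, with 1 match for Adcy9 and 2 each for Prkaca and the first of the Creb1 windows. No match was found in the windows of Adcy5, Glp1r, Gnas or Rapgef4. Adcy5 was called lower, and Adcy9 rose in the reported fit but not in several others. Shown here 5′ to 3′ are Adcy5 (chr11:79123344-79123593, minus strand), Adcy9 (chr10:11645595-11645844, plus strand) and the first Creb1 window (chr9:73397259-73397508, plus strand), with the core in capitals:
Adcy5: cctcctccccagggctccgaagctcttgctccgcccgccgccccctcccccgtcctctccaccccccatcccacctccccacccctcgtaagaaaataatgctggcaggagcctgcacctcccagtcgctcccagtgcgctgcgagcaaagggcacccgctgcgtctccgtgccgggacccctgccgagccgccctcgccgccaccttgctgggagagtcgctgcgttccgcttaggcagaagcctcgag
Adcy9: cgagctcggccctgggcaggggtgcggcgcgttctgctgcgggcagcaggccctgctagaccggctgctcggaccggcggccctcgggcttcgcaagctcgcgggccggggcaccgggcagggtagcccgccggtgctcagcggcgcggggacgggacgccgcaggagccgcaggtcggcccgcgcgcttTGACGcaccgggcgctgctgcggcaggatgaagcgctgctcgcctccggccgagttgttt
Creb1: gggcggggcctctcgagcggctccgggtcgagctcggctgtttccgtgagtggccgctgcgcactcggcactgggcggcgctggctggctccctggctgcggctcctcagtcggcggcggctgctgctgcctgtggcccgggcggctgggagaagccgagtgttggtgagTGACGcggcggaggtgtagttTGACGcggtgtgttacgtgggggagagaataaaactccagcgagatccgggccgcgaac
The Adcy5 window thus has no capitals, Adcy9 has a single core and Creb1 a pair of cores. Creb1 and Prkaca have the core but did not pass, and Gipr and Adcy6 were not searched. These windows therefore cannot relate the core to the direction of change. The 3 windows shown are rich in G and C, at 70.0% in Adcy5, 76.8% in Adcy9 and 70.0% in Creb1. The median over the table is 51.2%. The core itself holds a CG, so the 18.2% of all windows is not a background of like composition. A match of these letters is a description of the window and does not show that a factor binds there.

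The other genes of the pathway were followed with 9 lists by role, and 93 of their 109 genes were tested. Of these 93, 25 rose and 30 fell (59.1% together, against 49.2% of all tested genes), and 4 were called higher and 10 lower (15.1%, against 11.0%). Their median log2 fold change was 0.014, and 25 of the 93 had fractional counts, which is not repeated below for every gene. Among all tested genes 24.4% rose and 24.8% fell, and 4.81% were called higher and 6.18% lower. These shares stand beside the counts of each list. Among the other Gs-coupled receptors, 2 rose and 2 fell of 8. Adcyap1r1, the receptor of PACAP, had the most reads of that list and was called higher, from 77.1 and 80.3 CPM to 121.5 and 126 CPM (log2 fold change 0.65, adjusted p = 5.3e-06), although its counts include fractional values. Crhr1, a receptor of corticotropin-releasing hormone, was called lower (log2 fold change −0.63). Named after their values were seen, Gcgr, the glucagon receptor, fell (−0.45) and Adora2b, an adenosine receptor, rose (0.19).

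Gi-coupled receptors lower cAMP by inhibiting adenylyl cyclase. Of the 17 tested, 7 rose and 2 fell, beside 24.4% and 24.8% of all tested genes. The median log2 fold change of the list was 0.22. Npy1r, a receptor of neuropeptide Y, was called higher, from 1.10 and 1.19 CPM to 3.36 and 3.23 CPM (log2 fold change 1.53, adjusted p = 5.1e-05). Galr1, a galanin receptor, was also called higher, from 112 and 101 counts to 188 and 192 counts (log2 fold change 0.89). Both genes had few reads. The other receptors of the list that rose had more reads than either and were not called. Their log2 fold changes were 0.51 (Mtnr1a), 0.44 (Drd2), 0.34 (Sstr1), 0.20 (Ffar3) and 0.19 (Adra2a), named after their values were seen. Adora1, the receptor of this list with the most reads, had a log2 fold change of −0.0038 (adjusted p = 0.96). Adra2c was called lower at under 1 CPM in every library and is named after its value was seen, as is the fall of Gabbr1 (−0.21).

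Of the G protein subunits other than Gnas, listed with the chaperone Ric8b, 10 of 17 fell and 3 rose. Among all tested genes 24.8% fell and 24.4% rose. The median log2 fold change of the list was −0.20. Gnb2, a β-subunit with the most reads of the list, was called lower, from 517 and 553 CPM to 368 and 320 CPM (log2 fold change −0.63, adjusted p = 2.1e-05). Gnb4, with fractional counts, was called lower too (−0.67). The genes that rose, named after their values were seen, were Gnai3 (0.34), Gng4 (0.19) and Gng12 (0.50). Gnai3 was alone among the α-subunits of the list in rising. The others, Gnai1 (−0.21), Gnai2 (−0.21), Gnao1 (−0.24) and Gnaz (−0.30), fell and are also named after their values were seen. Among the kinases and arrestins that switch receptors off, listed with Rgs2, 3 of 8 fell and 1 rose, and none was called. The same shares of all tested genes stand beside these counts. Grk2, with the most reads, fell (−0.21), as did Grk6 (−0.30) and Arrb2 (−0.53), and Grk3 rose (0.48), the latter 3 named after their values were seen.

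**Figure D4:**
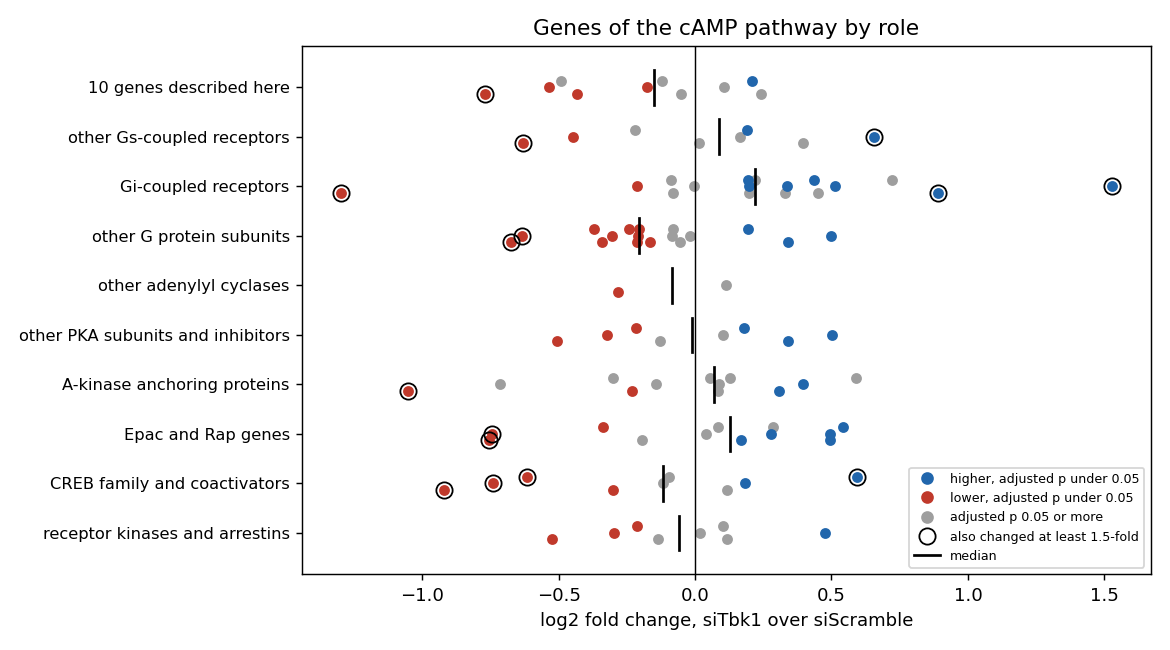
log2 fold change, siTbk1 over siScramble, of the 10 genes and of the tested genes of 9 lists by role. Blue and red points rose and fell at an adjusted p under 0.05, grey points did not pass, rings mark a change of at least 1.5-fold, and the black lines are medians. G protein subunits have a median of −0.20 and Gi-coupled receptors of 0.22, and the rings lie on both sides of 0.

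The subunits and inhibitors of protein kinase A moved in both directions, with 3 rising and 3 falling of 8 and none called. Among all tested genes 24.4% rose and 24.8% fell. The regulatory subunit Prkar1a had the most reads and did not pass (log2 fold change −0.13, adjusted p = 0.065). Named after their values were seen, the regulatory subunits Prkar1b (−0.50) and Prkar2b (−0.22) and the inhibitor Pkig (−0.32) fell, and the inhibitors Pkia (0.34) and Pkib (0.50) rose with the catalytic subunit Prkacb. The A-kinase anchoring proteins, which hold the kinase at membranes and organelles, had 2 genes rising and 2 falling of 12. Akap7 was called lower, from 4.75 and 4.37 CPM to 1.83 and 2.62 CPM (log2 fold change −1.05, adjusted p = 0.00047), and Akap13, with the most reads, rose (0.31). Named after their values were seen, Akap9 rose (0.40) and Akap1 fell (−0.23).

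Around Epac2, 5 of 12 genes rose and 3 fell, beside 24.4% and 24.8% of all tested genes. Rap1gap and Sipa1, GTPase-activating proteins that switch Rap1 off, were both called lower. Rap1gap went from 68.2 and 68.5 CPM to 43.0 and 37.9 CPM (log2 fold change −0.75, adjusted p = 7.9e-06), and the log2 fold change of Sipa1 was −0.74. Rap1a, the gene of the list with the most reads, rose (0.54), as did Rap1b (0.49) and Rap2c (0.50), whereas Rap2a fell (−0.34) and Rap2b did not pass (0.28, adjusted p = 0.40), the latter 4 named after their values were seen. Rapgef4 itself did not pass, as given above.

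In the list of CREB relatives and coactivators, 2 of 9 genes rose and 4 fell, beside 24.4% and 24.8% of all tested genes. Of the 9 genes, 4 were called, beside 11.0% of all tested genes. Atf1, a CREB family member, was called higher, from 109 and 100.2 CPM to 157 and 159 CPM (log2 fold change 0.59, adjusted p = 1.2e-05), with the most reads of the list and with fractional counts. The CREB coactivators Crtc1 (log2 fold change −0.74) and Crtc3 (−0.61) were called lower, and Crtc2, named after its value was seen, fell (−0.30). Sik1, a kinase that phosphorylates and restrains these coactivators, was called lower as well, from 21.6 and 21.7 CPM to 11.7 and 11.1 CPM (log2 fold change −0.92, adjusted p = 6.0e-06). Crebbp, a histone acetyltransferase that CREB recruits, rose (0.18) and is also named after its value was seen.

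Adcy5, as the called gene of the set, was compared with the 9131 other genes at a mean of at least 10 CPM by the distance between their log2 CPM in the 4 samples, each centred on its own mean. The 3 nearest genes were Rfx1 (distance 0.059, log2 fold change −0.70), Maz (0.071, −0.74) and Fam207a (0.076, −0.70). Over 4 samples such a distance mostly reflects the size of the change, and the counts of Maz include fractional values.

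**Figure D5:**
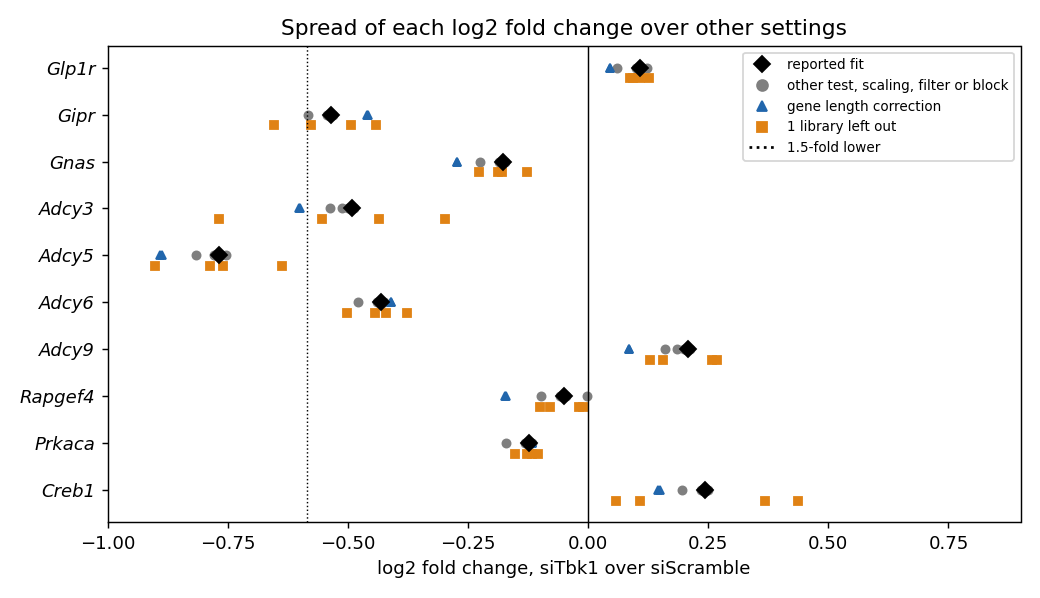
log2 fold change of each gene in the reported fit (black diamonds), in other tests, scalings, filters and the replicate block (grey circles), after the gene length correction (blue triangles) and with 1 library left out (orange squares). The sign of every gene is the same in all settings, and the orange squares of Creb1 spread from 0.057 to 0.44.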

How the data were processed

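INS-1 832/13 cells were sequenced 36 h after transfection with siScramble (2 samples) or siTbk1 (2 samples), and groups were taken from the labels. Estimated counts per gene were deposited by the authors without scaling between samples, and the submitters' processing notes name STAR 2.6.1d, Partek and build rn6. The annotation and the counting settings are not given in the sources used here. In 24.5% to 25.5% of the values of a library the count lay more than 0.001 from a whole number, and a gene with such a value is said to have fractional counts; where they come from is not given in the sources used here. Gene positions are those of the table.

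Estimated counts were rounded. filterByExpr of edgeR 4.0.16 (minimum count 10) kept 13953 genes, TMM factors scaled the libraries, and the groups were compared with edgeR's quasi-likelihood test on treatment alone, with Benjamini-Hochberg adjustment over all tested genes (R 4.3.3, limma 3.58.1, DESeq2 1.42.0; figures with Python 3.11.15 and matplotlib 3.10.9). Normalized counts are CPM rescaled to the mean effective library size. Standard errors were derived from the F statistics. Calls required an adjusted p under 0.05 together with a 1.5-fold change. The scripts were tested on simulated data. The genes of the set, the 9 lists and the rule for named genes were chosen with earlier results of these data known. The rule names the 10 genes, Tbk1, each list's called genes if their higher group averaged 1 CPM or more, its gene with the most reads, and the 3 genes nearest to a called gene of the set. Promoter windows are from RefSeq (GRCr8). No transcript lengths were used, so shares and ratios of counts between genes are compared between libraries only and do not rank the genes by level. Alternatives were other tests, scalings, filters, a replicate block, a correction for genomic span (loess, span 0.5), thinning and leaving out each sample. Intervals cover the spread between these samples, and 2 samples per group limit their precision.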

Additional observations from a re-analysis of the deposited data

How the results depend on the processing

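The fold change limit moved the counts most. Without it, 3405 genes were higher and 3459 lower among all tested genes, 1 and 4 in the set of 10, and 25 and 30 in the lists of other pathway genes. With a test for changes above 1.5-fold (glmTreat), the counts were 163 and 101, 0 and 0, and 1 and 1. With a sample left out, the lone sample of its group being assumed to vary like the other group, between 574 and 1159 of all genes were called lower (574 without siScramble replicate 3), between 1 and 2 of the set (Adcy5, and Gipr without siTbk1 replicate 2), and between 3 and 8 other pathway genes were called higher (8 without siScramble replicate 2). In the other alternatives run, these counts stayed within 1.5 times the reported ones. The labels do not say that a replicate number marks a shared batch, and between the siScramble and siTbk1 deviations by number the Pearson correlation was 0.0041 and the Spearman correlation −0.20 over 13953 genes, so the numbers were not taken as pairs. Total counts did follow the number: 47443061 (siScramble) and 47759013 (siTbk1) in replicate 2, and 38811919 and 38428926 in replicate 3. Whether this reflects shared handling was not tested. With the replicate number as a block, 699 genes were called higher and 898 lower, Adcy5 was still the called gene of the set, and Adcy9 was at 0.21 (adjusted p = 0.0503). After the correction for genomic span, 660 were called higher and 752 lower, or 682 and 776 with the replicate block as well, and Adcy9 did not pass in either (adjusted p = 0.35 and 0.48). The cause was not tested. Tbk1 and the 10 genes kept their sign in every alternative run. Adcy3 and Adcy5 are limited by depth.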
